A study of Mus musculus with 12 samples.

Results

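Adenosine metabolism and receptor genes were followed across the circadian day in the mouse hippocampus. The set holds 8 genes of the 24089 tested: Ada, Adk, Nt5e, Adora1, Adora2a, Adora2b, Slc29a1 and Slc29a2. They were chosen by gene name, and the starting point was the level of Ada, which had been seen to be highest at CT12. The time profile of Ada is therefore a description here and carries no test, while the other 7 genes were tested. RNA came from adult male wild-type mice, with 1 mouse on each 1-colour array and 3 mice at each circadian time (CT). All animals were kept in constant darkness, and the hippocampus was taken after 30 h of darkness for CT18, 36 h for CT0, 42 h for CT6 and 48 h for CT12. Circadian time and hours in darkness thus changed together and cannot be told apart. The strain is not given in the sources used here.

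Adenosine is a product of ATP breakdown that builds up in the brain during waking and promotes sleep. Outside cells it is made from AMP by the ecto-5'-nucleotidase that Nt5e encodes, and it crosses membranes through the equilibrative transporters encoded by Slc29a1 and Slc29a2. Inside cells, adenosine kinase (Adk) returns it to AMP, and adenosine deaminase (Ada) turns it into inosine. It acts on the A1 receptor (Adora1), which inhibits neurons and is abundant in the hippocampus, and on the receptors encoded by Adora2a and Adora2b, which raise cyclic AMP. Caffeine blocks the A1 receptor and the Adora2a receptor.

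The members were measured by 10 probes, 2 each for Adk and Adora2b and 1 for each of the others, and all 10 were well above background on all 12 arrays. Ada was read by a probe at chr2:163552581-163552640 on the minus strand of mm9, as the scanner files give it. Promoters (250 bases before to 50 after an annotated start) were taken from RefSeq on GRCm38.p6, where 7 of the 8 genes matched, with 16 promoters. Adora2a had no match. The Ada promoter (chr2:163750190-163750489, minus strand, 68% G and C) is shown because Ada had the largest change among the members. A promoter of Slc29a1 (chr17:45595197-45595496, minus strand) is shown because it alone among the 16 held an E-box, the element bound by the clock proteins CLOCK and BMAL1. Capitals mark the E-box CACGTG and the GC box GGGCGG.
Ada: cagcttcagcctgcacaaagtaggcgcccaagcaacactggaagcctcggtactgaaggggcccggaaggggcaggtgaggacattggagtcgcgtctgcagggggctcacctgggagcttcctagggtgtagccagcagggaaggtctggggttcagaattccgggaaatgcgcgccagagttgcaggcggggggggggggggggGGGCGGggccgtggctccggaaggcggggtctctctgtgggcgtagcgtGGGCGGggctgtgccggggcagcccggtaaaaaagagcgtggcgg
Slc29a1: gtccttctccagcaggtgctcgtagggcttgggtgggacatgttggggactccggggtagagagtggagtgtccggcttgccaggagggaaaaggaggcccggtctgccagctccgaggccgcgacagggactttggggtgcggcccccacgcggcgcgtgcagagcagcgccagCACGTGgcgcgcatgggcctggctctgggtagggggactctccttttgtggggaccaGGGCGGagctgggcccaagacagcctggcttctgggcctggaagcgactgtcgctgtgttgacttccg
The E-box was present in 7.15% of all 32851 promoters searched on both strands. No member promoter held the D-box (TTATGTAA or TTACGTAA, in 1.06% of all promoters) or the cAMP element (TGACGTCA, 1.79%). The glucocorticoid receptor motif TGTTCT, in 19% of all promoters, was found in a single promoter of Slc29a1 and in the promoter of Slc29a2. The GC box, chosen after the promoters were seen and present in 35.7% of all, occurred in at least 1 promoter of each of the 7 matched genes. A promoter of Adora1 and several of Slc29a1 lacked it. The shares of all are by promoter, so a count by gene, with several promoters for some genes, cannot be set against them. The Ada promoter held none of the 4 motifs other than the GC box.

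The levels below are on a log2 scale on which 0 is the 75th percentile of the array, so they compare mice for 1 probe and not 1 gene with another. The 12 arrays were on 3 slides with 1 array per time on each, and each time kept the same position on every slide, so position and time cannot be told apart. The share of spots well above background was 59.3% to 77.1%, and no spot was saturated. The library labelled CT12 mouse 11 stood apart, with correlations of 0.945 to 0.965 to the other libraries, which correlated at 0.984 or more among themselves. Its median deviation from the 12-array mean was -3.87 for a list of 12 hippocampal neuron genes, against -0.12 to 0.59 in the other 11 libraries, and 4.60 for the 10 measured of 12 cerebellum genes, against -0.73 to -0.06. No probe kept for testing carried the name Cbln3 or Gabra6, of the cerebellum list. CT12 mouse 10 also differed from the rest in region markers. Its score over 6 thalamus genes was 1.48 and their summed level 4.85, against scores of -0.45 to 0.07 and summed levels of 2.22 to 2.98 in the 10 libraries other than CT12 mice 10 and 11. Its summed cerebellum level was 4.36 against 2.08 to 3.17 in those 10, and its hippocampal neuron score of -0.12 was the lowest after that of CT12 mouse 11. The CT12 minus CT0 difference of each member is therefore given with and without CT12 mouse 11, and the values without it still rest on mouse 10 and mouse 12. Group means, ranges of means, overlaps of groups and shares of all genes include CT12 mouse 11 unless stated otherwise.

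Ada was higher in each CT12 mouse than in every mouse of the other times. The levels were -1.14, -1.27 and -1.40 in CT12 mice 10, 11 and 12. They were -2.60, -2.25 and -2.75 in CT0 mice 1, 2 and 3, and -2.39, -2.41 and -2.28 in CT6 mice 5, 6 and 7. At CT18 they were -2.89, -2.65 and -2.95 in mice 14, 15 and 16. The lowest CT12 mouse stood 0.85 above the highest of the 9 other mice, and the CT18 mice were all below the CT0 and CT6 means.

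**Figure D1:**
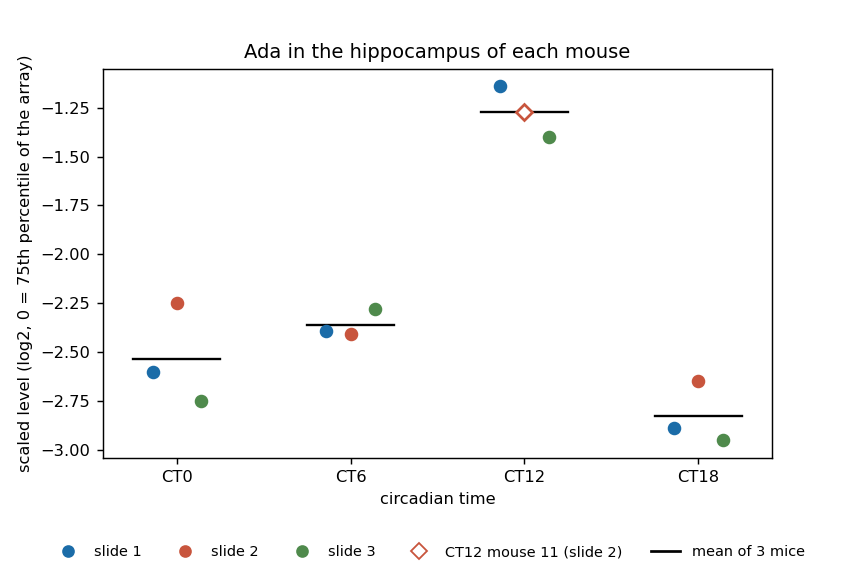
Scaled level of Ada (log2, 0 is the 75th percentile of the array) in each of the 12 mice by circadian time, coloured by slide, with a bar at the mean of 3 mice. The 3 CT12 mice lie between -1.40 and -1.14, above all the others, whose highest level was -2.25.

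The mean was -1.27 ± 0.13 (SD, n = 3) at CT12, -2.53 ± 0.26 at CT0, -2.36 ± 0.07 at CT6 and -2.83 ± 0.16 at CT18. Ada at CT12 was thus 2.40-fold the CT0 level, 2.13-fold the CT6 level and 2.95-fold the CT18 level. These folds were the same to 3 digits without CT12 mouse 11, whose level of -1.27 equalled the mean of its group. The order of the means was CT12, CT6, CT0 and CT18. CT6 and CT0 overlapped and differed by 0.17, while the CT18 mice lay below all CT6 mice, with a difference of -0.47. On the scanner's intensity scale, before division by the array's own scale, Ada read 50.4 to 103 in the mice of CT0, CT6 and CT18 and 124 to 275 at CT12.

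The difference of CT12 from CT0 was 1.46 on slide 1, 0.98 on slide 2 and 1.35 on slide 3, and CT12 was the highest time on each slide. The range of the 4 group means was 1.56 for Ada, and 477 of the 24089 genes (1.98%) had a range at least as large. Markers of choroid plexus, the tissue that makes cerebrospinal fluid, were high in 5 libraries. Over the 10 measured genes of 12 listed, CT12 mouse 11 had a median deviation of 1.87 and CT12 mouse 10 one of 3.46. The same score was 3.81 for mouse 1 (CT0), 2.71 for mouse 7 (CT6) and 2.69 for mouse 14 (CT18), and it was below 0 for the other 7 libraries. Without those 5 libraries Ada was at -1.40 in the remaining CT12 mouse and at a mean of -2.50 in 2 CT0 mice, a difference of 1.10, and with the choroid plexus score as a covariate it was 1.26. That comparison also leaves out both CT12 mice with unusual region markers, and without CT12 mouse 10 alone the difference was 1.20.

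Markers of other cell types and regions also set all 3 CT12 mice apart from the 9 others, in 3 of the 12 lists. The oligodendrocyte score, over all 6 listed genes, was 0.31, 0.80 and 0.18 in CT12 mice 10, 11 and 12, against -0.33 to 0.11 in the others, with summed levels of 8.14 to 8.68 against 7.73 to 8.17. For thalamus the scores were 1.48, 0.26 and 0.07 against -0.45 to -0.06, with summed levels of 2.98 to 4.85 against 2.22 to 2.81. For hippocampal neurons, with all 12 listed genes measured, they were -0.12, -3.87 and 0.22 against 0.27 to 0.59, with summed levels of 3.48 to 6.85 against 6.76 to 7.08. The part of these tissues in the CT12 level of Ada was not tested.

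None of the other 7 members passed the test for circadian time in any fit. The moderated F test over the 4 times (limma, Benjamini-Hochberg over 24089 genes, adjusted p under 0.05) called 0 of the 7, where 0.166% of all genes were called. A fit of a 24-hour cosine and sine called 0 of the 7, with 0.0706% of all genes called. The difference CT12 minus CT0 called 0 of 7 against a background of 0.0581%, and CT18 minus CT6 called 0 of 7 against 0.133%. At an unadjusted p under 0.05 the counts were 0, 0, 1 and 0 of the 7, beside 2551, 2341, 2811 and 2004 of all 24089 genes. The counts at an adjusted p under 0.05 were also 0 without CT12 mouse 11, where 59, 68, 7 and 300 of all 24089 genes were called. With slide as a block they were 0 too, beside 16, 13, 12 and 40 of all genes. With 3 mice a time the 95% intervals of CT12 minus CT0 reached as high as 1.43 for Adora2a, 0.97 for Nt5e, 0.93 for Slc29a1, 0.79 for Adora2b, 0.50 for Adk, 0.36 for Slc29a2 and 0.13 for Adora1. An interval that holds 0 does not show that a level was constant.

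**Figure D2:**
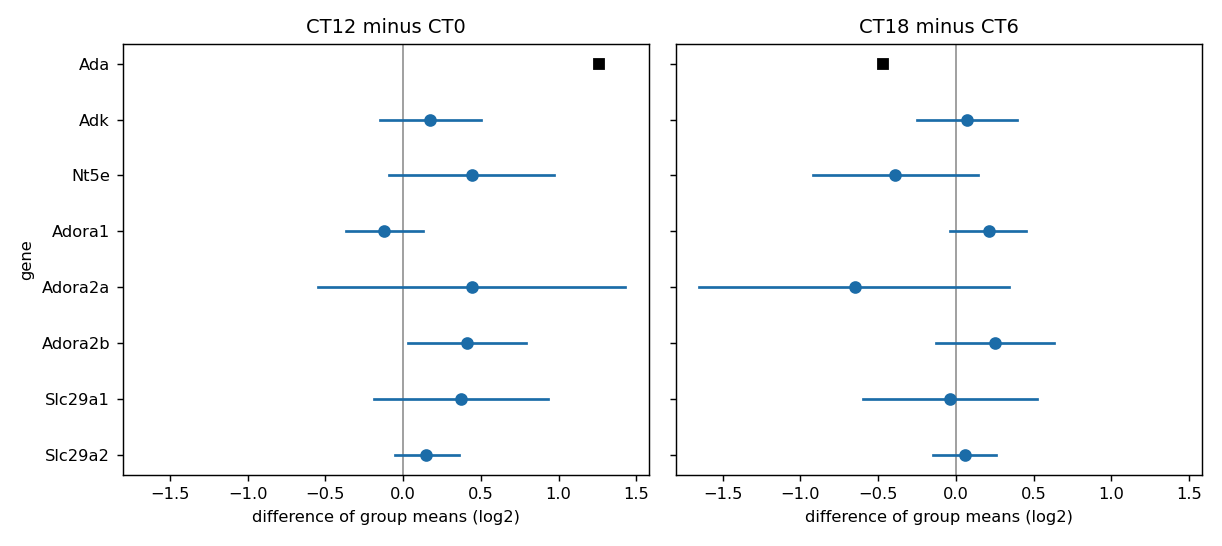
Difference of group means (log2) for CT12 minus CT0 and CT18 minus CT6, with 95% intervals from limma for the 7 tested members and a square without an interval for Ada, which was chosen for its CT12 level. Ada lies at 1.26 and -0.47, and the intervals of the other members hold 0 except that of Adora2b for CT12 minus CT0, which runs from 0.03 to 0.79 before adjustment.

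Adk, the kinase that salvages adenosine and is found mainly in astrocytes of the adult brain, kept within a narrow band. Its levels were 3.41, 3.74 and 3.62 at CT0, 3.50, 3.67 and 3.54 at CT6, 3.55, 4.03 and 3.71 at CT12, and 3.45, 3.75 and 3.72 at CT18. All 4 groups overlapped, and the one high value belonged to CT12 mouse 11. CT12 minus CT0 was 0.17 ± 0.15 (SE; adjusted p = 0.623 by limma), 0.04 without that mouse and 0.28 without CT12 mouse 10. The second probe of Adk moved in the same way, with a range of group means of 0.15, or 0.04 without mouse 11. The 2 enzymes that remove adenosine thus had a range of means of 1.56 (Ada) and 0.19 (Adk) over the same mice.

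Nt5e, whose product makes extracellular adenosine from AMP, had its highest mean at CT12 and its lowest at CT18. The levels were -1.76, -2.49 and -2.38 at CT0, -2.37, -2.08 and -1.99 at CT6, -1.81, -1.31 and -2.18 at CT12, and -2.45, -2.55 and -2.63 at CT18. The CT12 mice overlapped with those of CT0 and CT6, and the CT18 mice lay below all CT6 mice. CT12 minus CT0 was 0.44 ± 0.24 (SE; adjusted p = 0.470 by limma) and 0.21 without CT12 mouse 11, the highest of all 12 libraries, and it was 0.66 without CT0 mouse 1. CT18 minus CT6 was -0.39 ± 0.24, with an adjusted p of 0.803 by limma. On single slides CT12 minus CT0 was -0.05, 1.17 and 0.19, so the 3 slides did not share its sign.

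In each of the 4 times, the libraries high for choroid plexus genes had a higher Nt5e level than the others of that time. The same held for Adora2b in 4 of 4 times, for Ada and Adora2a in 2, for Slc29a1 and Slc29a2 in 1, and for Adk and Adora1 in none. The share of all genes with this order was not computed, so these counts do not set any member apart. At CT12 the libraries high for choroid plexus genes were mouse 10 and mouse 11, both with unusual region markers. The summed level of the choroid plexus list ran from 1.19 to 8.53 at CT0, 1.18 to 7.76 at CT6, 1.42 to 8.06 at CT12 and 1.15 to 7.62 at CT18. No probe kept for testing carried the name Slc4a5 or Cldn2, of that list. With the choroid plexus score as a covariate, CT12 minus CT0 was 0.36 for Nt5e and 0.34 for Adora2b (adjusted p = 0.459 and 0.386 by limma), so neither was called with or without it. In RNA from whole tissue, a change in the number of cells of a type and a change in RNA per cell cannot be told apart.

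**Figure D3:**
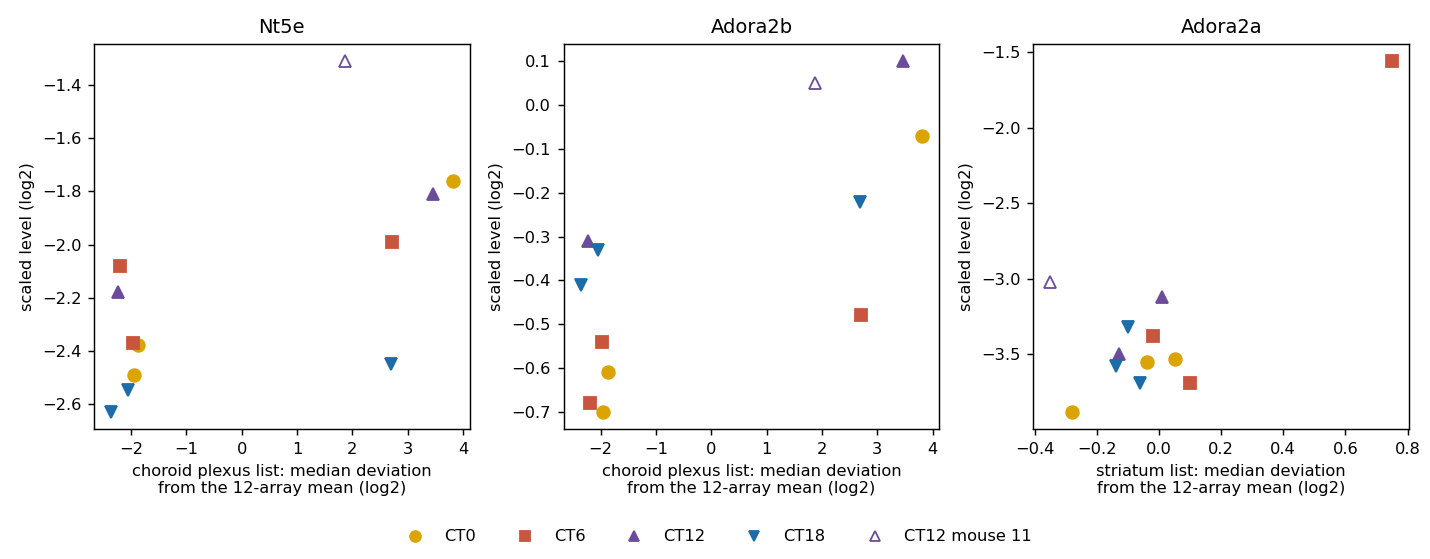
Scaled level (log2) of Nt5e and Adora2b against the choroid plexus score, and of Adora2a against the striatum score, in the 12 libraries; a score is the median deviation of the list's measured genes from their 12-array means. Within each time, the libraries with a choroid plexus score above 0 have the higher Nt5e and Adora2b levels, and CT6 mouse 6 has both the highest striatum score (0.75) and the highest Adora2a level (-1.56).

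Among the receptors, Adora1 had its lowest mean at CT12 and its highest at CT18, where Ada had its highest and lowest. The levels were 4.72, 4.91 and 4.78 at CT0, 4.87, 4.81 and 4.73 at CT6, 4.54, 4.63 and 4.88 at CT12, and 4.87, 5.06 and 5.09 at CT18. The CT18 mice did not fall below any CT6 mouse, the lowest CT18 level and the highest CT6 level both being 4.87 at this rounding, and the CT12 mice overlapped with CT0. The difference CT12 minus CT0 was -0.12 ± 0.11 (SE; adjusted p = 0.664 by limma), -0.09 without CT12 mouse 11, -0.22 without CT12 mouse 12, and 0.09 when arrays were centred on their medians. That scaling moved the median of this difference over all genes from -0.02 to 0.19. CT18 minus CT6 was 0.21 ± 0.11 (adjusted p = 0.730 by limma) and 0.00, 0.26 and 0.36 on the 3 slides. The A1 receptor transcript therefore ranged over 0.32 between group means, a 1.25-fold range.

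Adora2a is expressed mainly in the striatum, and 1 library decided its highest mean. The levels were -3.88, -3.53 and -3.55 at CT0, -3.38, -1.56 and -3.69 at CT6, -3.12, -3.02 and -3.50 at CT12, and -3.32, -3.69 and -3.58 at CT18. CT6 mouse 6 stood 1.46 above the next library, or 2.74-fold, while the other 11 lay between -3.88 and -3.02. That mouse also had the highest level of 7 of the 10 measured striatum genes, among them Drd1 (D1 dopamine receptor), Rgs9, Gpr6, Tac1, Pde10a and Adcy5. Its Drd1 was at -0.71 against -5.23 to -1.42 in the others, while its Drd2 was at -3.73, within the range of the others. The summed level of the striatum list was 5.96 in that mouse, 5.95 in CT12 mouse 11 and 4.92 to 5.26 in the other 10. The median score of the list was 0.75 in CT6 mouse 6 and -0.35 in CT12 mouse 11, its lowest value in any library. In CT12 mouse 11 Ppp1r1b and Penk were at their highest, and Drd1, Rgs9, Gpr6 and Adcy5 at their lowest. Drd1a, also in the list, is an older name of Drd1. The part of striatal tissue in the Adora2a level was not tested.

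CT18 minus CT6 for Adora2a was -0.65 ± 0.45 (SE; adjusted p = 0.869 by limma) with all mice and 0.00 ± 0.19 without CT6 mouse 6. Between CT12 and CT0 the difference was 0.44 ± 0.45 (adjusted p = 0.687 by limma) and 0.35 without CT12 mouse 11. The CT12 mice lay above the CT0 mice by a narrow margin, -3.50 against -3.53. It was the only one of the 7 tested members whose CT12 and CT0 groups did not overlap, where 12.9% of all genes had groups that did not overlap. For CT18 and CT6 the groups did not overlap for 3 of the 7, Nt5e, Adora1 and Adora2b, where 22.8% of all genes did so.

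Adora2b, the gene of the low-affinity adenosine receptor, had the smallest unadjusted p of the 7 for CT12 minus CT0. The levels were -0.07, -0.70 and -0.61 at CT0, -0.54, -0.68 and -0.48 at CT6, 0.10, 0.05 and -0.31 at CT12, and -0.22, -0.33 and -0.41 at CT18. The CT12 mice were above all CT6 mice and overlapped with CT0 through CT0 mouse 1. Adora2b at CT12 exceeded CT0 by 0.41 ± 0.17 (SE), a 1.33-fold difference with an unadjusted p of 0.038 and an adjusted p of 0.420 by limma, and 0.36 (adjusted p = 0.691) without CT12 mouse 11. It was 0.61 (adjusted p = 0.305 by limma) without CT0 mouse 1. CT12 was the highest time on all 3 slides, by 0.17, 0.75 and 0.31 over CT0. The second Adora2b probe had the levels -2.11, -2.85 and -2.35 at CT0 and -1.85, -2.08 and -2.41 at CT12. It had CT12 highest on slides 1 and 2 and a difference of -0.06 on slide 3, so the probes did not give the same order there.

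**Figure D4:**
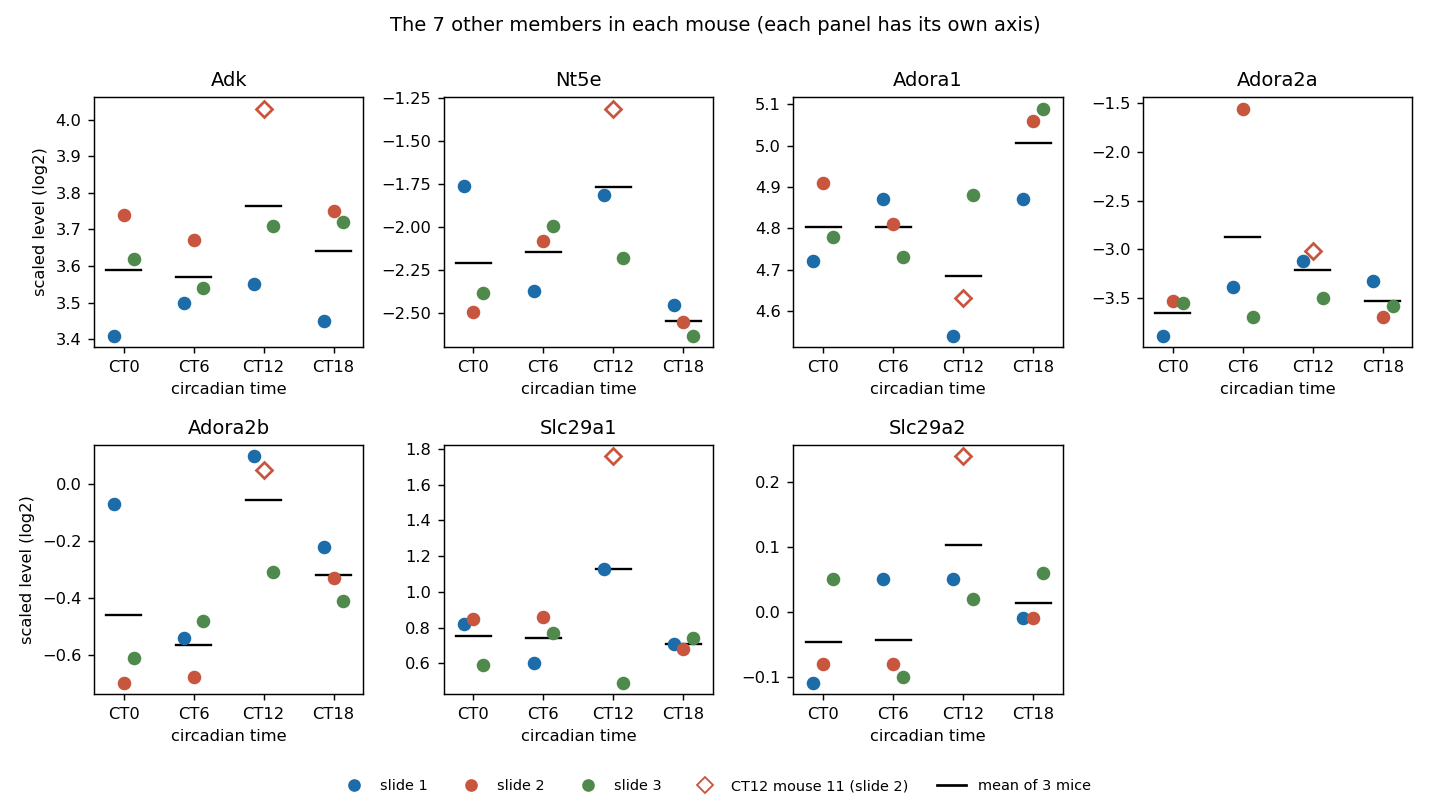
Scaled level (log2) of the 7 other members in each of the 12 mice by circadian time, coloured by slide, with bars at the mean of 3 mice and each panel on its own axis. CT12 mouse 11, the open diamond, is the highest library for Adk, Nt5e, Slc29a1 and Slc29a2, and CT6 mouse 6 is the highest for Adora2a.

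The transporter genes had their highest means at CT12, and in both CT12 mouse 11 was the highest of the 12 libraries. Slc29a1, which encodes the nitrobenzylthioinosine-sensitive transporter, read 0.82, 0.85 and 0.59 at CT0, 0.60, 0.86 and 0.77 at CT6, 1.13, 1.76 and 0.49 at CT12, and 0.71, 0.68 and 0.74 at CT18. CT12 held both the highest and the lowest library, with an SD of 0.63 against 0.14, 0.13 and 0.03 at CT0, CT6 and CT18. The CT12 mean exceeded the CT0 mean by 0.37 ± 0.25 (SE; adjusted p = 0.545 by limma), by 0.05 without CT12 mouse 11 and by 0.69 without CT12 mouse 12 (adjusted p = 0.111).

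Slc29a2, which encodes the less sensitive transporter of the same family, had the narrowest spread over all libraries among the members. It read -0.11, -0.08 and 0.05 at CT0, 0.05, -0.08 and -0.10 at CT6, 0.05, 0.24 and 0.02 at CT12, and -0.01, -0.01 and 0.06 at CT18. All groups overlapped. Its CT12 minus CT0 was 0.15 ± 0.09 (SE; adjusted p = 0.507 by limma) and 0.09 without CT12 mouse 11.

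As a group, 6 of the 7 tested members had a CT12 mean above their CT0 mean, with a median difference of 0.37, where 11134 of all 24089 genes did so and the median was -0.02. Without CT12 mouse 11 the median of the 7 was 0.09, still with 6 above 0, and that of all genes -0.01, with 11538 above 0. For CT18 minus CT6 the median of the 7 was 0.06, with 4 above 0. Over all genes that median was -0.02, with 11132 above 0. Their median range of group means was 0.41, against 0.30 for all genes and 1.56 for Ada. Over the 12 libraries the Pearson correlation with Ada was 0.678 for Nt5e, 0.560 for Slc29a1, 0.524 for Adora2b, 0.447 for Slc29a2, 0.400 for Adk, 0.175 for Adora2a and -0.639 for Adora1. Over the 11 libraries without CT12 mouse 11 it was 0.540, 0.316, 0.386, 0.141, 0.0783, 0.114 and -0.561. These values describe libraries that share slides and tissue content.

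The wider adenosine pathway was followed through 48 further genes, of which 42 were measured. No probe kept for testing carried the name Enpp3, Acpp, Bst1, Nt5c1b, Ampd1 or Slc28a2. None of the 42 was called by limma in the F test, the rhythm fit, CT12 minus CT0 or CT18 minus CT6, and 4, 5, 5 and 3 had an unadjusted p under 0.05. These were 9.52%, 11.9%, 11.9% and 7.14% of the list, near the 10.6%, 9.72%, 11.7% and 8.32% of all genes. By role, none of 7 measured genes of release and extracellular formation, 9 of intracellular formation, 11 of removal and salvage, 4 transporters, 10 receptor effectors and the A3 receptor Adora3 passed the F test. The median of CT12 minus CT0 over the 42 was 0.00, with 21 above 0, and -0.04 without CT12 mouse 11. Over all 24089 genes it was -0.02, with 11134 above 0, and -0.01 without that mouse.

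Xdh had the smallest F-test p of the list. It encodes xanthine dehydrogenase, which turns hypoxanthine and xanthine, products downstream of adenosine deaminase, into uric acid. Its levels were -2.89, -2.57 and -3.14 at CT0, -3.20, -3.16 and -2.92 at CT6, -1.42, -1.77 and -1.87 at CT12, and -2.25, -2.89 and -3.25 at CT18. The CT12 mice were above all 9 others, the highest of which was CT18 mouse 14 at -2.25. The difference of CT12 from CT0 was 1.18 ± 0.25 (SE), a 2.26-fold difference that did not pass the threshold (adjusted p = 0.176 by limma, and 0.136 in the F test). It was 1.22 without CT12 mouse 11 and 1.47, 0.79 and 1.27 on the 3 slides.

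Ampd3, an AMP deaminase that diverts AMP to IMP, was also above the 9 other libraries in all 3 CT12 mice, at -2.89, -2.70 and -2.72 against -3.38 to -3.03. Ampd3 differed by 0.49 ± 0.11 between CT12 and CT0 (SE; adjusted p = 0.221 by limma), a 1.41-fold difference, and 0.46 without CT12 mouse 11. Entpd1, the ectonucleotidase CD39 that acts before the Nt5e product, lay below the 9 others in all 3 CT12 mice, at -3.38, -3.66 and -3.41 against -3.30 to -2.92. Its CT12 minus CT0 was -0.39 ± 0.12 (adjusted p = 0.362 by limma), and -0.30 without CT12 mouse 11. Ampd3 and Entpd1 were about as dim as Adora2a, which lay between -3.88 and -3.02 outside CT6 mouse 6. The differences of Ampd3, Entpd1 and Xdh are not given under other scalings. The fourth gene of the list with CT12 outside the other libraries was Ahcy, adenosylhomocysteinase, with 0.25 ± 0.11 for CT12 minus CT0 and 0.13 without CT12 mouse 11. Over all genes 1.70% had all CT12 mice above the 9 others and 2.93% below, and in the list these were 3 and 1 of 42.

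**Figure D5:**
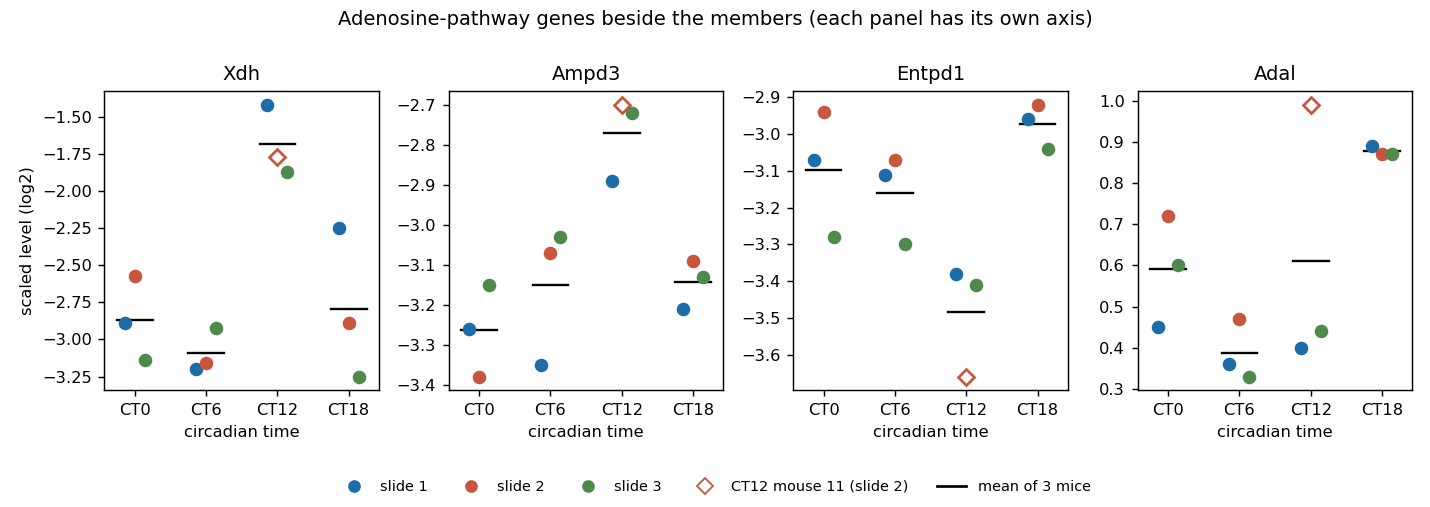
Scaled level (log2) of Xdh, Ampd3, Entpd1 and Adal in each of the 12 mice by circadian time, coloured by slide, with bars at the mean of 3 mice and each panel on its own axis. CT12 mice lie above all others for Xdh and Ampd3 and below all others for Entpd1, and the CT18 mice for Adal lie between 0.87 and 0.89.

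The other genes with the smallest F-test p were Entpd2, Adal and Kcnj6, none of them past the threshold. Entpd2, an ectonucleotidase that favours ATP, had means of 1.97, 2.21, 2.20 and 1.88 at CT0, CT6, CT12 and CT18 (F-test adjusted p = 0.416 by limma). Adal, a deaminase-like relative of Ada known to act on N6-methyl-AMP, did not follow Ada: it read 0.45, 0.72 and 0.60 at CT0, 0.36, 0.47 and 0.33 at CT6, 0.40, 0.99 and 0.44 at CT12, and 0.89, 0.87 and 0.87 at CT18. Its CT18 mice were above all CT6 mice. CT18 minus CT6 was 0.49 ± 0.15 (SE; adjusted p = 0.311 by limma), and without CT12 mouse 11, at 0.99 the highest library, it passed with 0.49 ± 0.08 and an adjusted p of 0.0329. In that fit 300 of all 24089 genes (1.25%) passed, beside this 1 of 42, and it was the only 1 of the 23 alternatives in which a gene of the list passed the F test, CT12 minus CT0 or CT18 minus CT6. Kcnj6, a potassium channel subunit opened through the A1 receptor, had means of -0.86, -0.93, -1.32 and -0.67 (adjusted p = 0.484), with -1.86 in CT12 mouse 11.

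Correlation with Ada was ranked only among the 16093 tested genes with a RefSeq symbol. Of these, the genes outside the pathway whose levels correlated most with Ada over the 12 libraries were Snx22 (r = 0.926), a sorting nexin, Cyp2j6 (0.924), a cytochrome P450, Rhou (0.924), Fas (0.924), a death receptor, and A330015K06Rik (0.913). Their ranges of group means were 0.39, 0.48, 0.63, 0.95 and 1.14. Over the 11 libraries without CT12 mouse 11 they were Trem2 (0.950), a microglial receptor, Cd83 (0.943), an immunoglobulin-family surface protein, Amer1 (0.942), Rhou (0.934) and Nfic (0.929), a nuclear factor I transcription factor. Rhou was in both lists of 5, with means of 1.76, 1.96, 2.39 and 1.76 at CT0, CT6, CT12 and CT18. Cd83 had a CT12 mean of 2.53 against 1.54 to 1.58 at the other times. Trem2 had means of 1.84, 1.91, 1.86 and 1.82, a range of 0.09 when CT12 mouse 11 was counted.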

How the data were processed

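Total RNA was labelled with Cy3 and hybridised to 1-colour Agilent arrays. Agilent Feature Extraction (version 10.7.3.1, per the file headers) read the spots, and probe coordinates are on mm9; the processed intensity in the deposited scanner files is background-subtracted and not scaled between arrays. The deposited flags for background, saturation and outliers (other values, per the file headers) were used as given. The authors' deposited log2 value table has column medians of 5.369 to 5.370, and each of its columns correlated best with its own array (r of 0.989 or more). How it was centred is not given in the sources used here, and it served as an alternative. Its Ada group means equalled those after quantile normalization at this rounding, so it is not a separate check from that scaling.

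Outlier spots were left out, spots of 1 probe averaged, and log2 intensities scaled to the 75th percentile of the array. Of 55681 probes, 33965 were kept as well above background on all 3 arrays of at least 1 time, and the probe of highest mean stood for each of 24089 genes. Names were matched to RefSeq by accession for 26582 probes, by symbol for 2602 and by synonym for 492, while 26005 kept their file name. R 4.3.3 and limma 3.58.1 were used, on all 12 arrays, and the fits were tested on simulated data. The number of arrays limits the precision. On what the replicates are, the labels say no more than 1 mouse each. The F test and the differences between times were set against the spread between mice of the same time. That spread was moderated by limma over all genes. Local background read 100.6 on the array of CT0 mouse 1 and 25.3 to 37.8 on the others. The quality summary in the file headers marked that array for evaluation and the others as in range.

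The members, the wider list and the marker lists were chosen with earlier results of these data known. The named genes are the 8 members, the genes of the wider list called or among its 6 smallest F-test p-values, and the 5 genes most correlated with Ada over 12 and over 11 libraries among those with a RefSeq symbol. Ahcy and the marker genes were named after their values were seen. Alternatives were other scalings, the deposited table, background correction (normexp, offset 50), filters, probe summaries, slide as a block, moderation settings, and leaving out each array; 2 on choroid plexus were chosen after seeing the data.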

Additional observations from a re-analysis of the deposited data

How the results depend on the processing

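Over the 23 alternatives, the count of tested members called stayed at 0 of 7 in the F test, the rhythm fit, CT12 minus CT0 and CT18 minus CT6, and in fits of only the 6 arrays compared. The smallest adjusted p of a tested member under any of them was 0.147, 0.223, 0.111 and 0.425 in those fits by limma. The values 0.147 and 0.111 belong to Slc29a1 without CT12 mouse 12. With 1 library left out, the F test called 0 to 117 of all 24089 genes. CT12 minus CT0 called 1 to 78 and CT18 minus CT6 called 1 to 300. The F test called no gene at all without CT6 mouse 5, 6 or 7 or without CT18 mouse 14. Where so few genes pass, a count of 0 says little about the members. Ada CT12 minus CT0, 1.26, was 1.48 with median centring and 0.87 with normexp background correction, in both cases a move larger than the pooled SD of 0.20. Median centring shifts every gene of an array by the same amount, and it moved the median of this difference over all genes from -0.02 to 0.19. With normexp that median stayed at -0.02, and the cause of the Ada move was not tested. The Ada difference was 1.16 to 1.40 when each library was left out in turn. With quantile normalization and in the deposited table, which nearly coincide, it was 1.41. CT12 was the highest time under each scaling. Of 322 recomputed differences of the tested members 6 changed sign, none of them called. Adora1 CT12 minus CT0 became 0.09 with median centring and 0.03 without the 5 libraries high for choroid plexus. Slc29a1 CT12 minus CT0 became -0.24 without those 5. Its CT18 minus CT6 became 0.06 with median centring, and was -0.11 (without CT6 mouse 5) to 0.02 (without CT6 mouse 6) with 1 library left out. Adora2a CT18 minus CT6 was -1.06 (without CT6 mouse 7) to 0.00 (without CT6 mouse 6). No paired analysis by replicate number was possible because each mouse has a number of its own; the slide was used as a block instead, and it changed no call of a tested member. Signal over background limits the dimmest members: the intensity of Ada was 50.4 to 275 and that of Adora2a 28.8 to 133. The same limit holds for Xdh, Ampd3 and Entpd1 of the wider list. Outside CT12, Xdh lay between -3.25 and -2.25 and Ada between -2.95 and -2.25.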

Other observations

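Some genes of the wider pathway had a CT12 mean set by CT12 mouse 11. Gda, guanine deaminase, read 0.08 in that library and 4.97 to 5.61 in the 9 libraries of the other times, and its CT12 minus CT0 was -1.83 with it and -0.20 without it. Enpp1, an ectonucleotide pyrophosphatase, read -0.73 there and -2.81 to -1.98 in those 9, with differences of 0.60 and 0.18. Adora3, the A3 receptor gene, read -3.09 there and -2.46 to -1.93 in those 9, with differences of -0.38 and -0.11. Slc28a3, a concentrative nucleoside transporter, had SDs of 1.41 to 1.90 within each time.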
